A study of Homo sapiens with 8 samples.

Results

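Peroxiredoxins and thioredoxins are the thiol enzymes that remove hydrogen peroxide and keep protein cysteines reduced. A peroxiredoxin reduces peroxide with a reactive cysteine, and most peroxiredoxins are then restored by a thioredoxin, which is itself reduced by a thioredoxin reductase at the cost of NADPH. The peroxiredoxins and the other members of this relay are found in separate compartments. PRDX1, PRDX2 and TXN work in the cytosol, PRDX3, TXN2 and TXNRD2 in the mitochondrial matrix and PRDX4 in the endoplasmic reticulum. PRDX5 is found in mitochondria, peroxisomes and the cytosol, and PRDX6 is a cytosolic enzyme that uses glutathione rather than thioredoxin. These 9 genes, chosen by symbol, are described here out of 38010 gene IDs in the count table, and all 9 matched an ID.

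The genes were measured by bulk RNA-seq in confluent cultures of Ea.hy926, a human line, a hybrid of umbilical vein endothelium and A549 lung carcinoma. The parental line, with 4 biological replicates, was compared with its Rho0 derivative, which is deficient in oxidative phosphorylation and also gave 4. Each line stands for 1 cell line, so a difference unrelated to respiration cannot be told apart from its loss. The labels do not say how the Rho0 cells were made. Polyadenylated RNA was sequenced with a strand-specific kit, and libraries held 11721708 to 37203507 estimated counts.

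The labels were checked against marker genes. mRNAs of mitochondrial DNA took 16.1% to 21.4% of counts in the parental libraries and 0.00296% to 0.149% in Rho0, the highest of these being Rho0 replicate 2. All 8 endothelial markers averaged at least 1 CPM (counts relative to the library size after TMM scaling) over the libraries, with a summed level of 3637 to 3898 CPM in the parental line and 4172 to 4427 CPM in Rho0. Single markers went different ways, with means of 1085 and 2116 CPM for PECAM1, 1716 and 1033 CPM for CDH5, 13.8 and 130.4 CPM for KDR, and 7.77 and 0.397 CPM for EMCN. Of 6 epithelial markers only KRT8, KRT18 and CLDN4 averaged at least 1 CPM, and their list summed to 1733 to 1927 CPM and 656 to 1094 CPM. The 7 fibroblast markers together stayed between 1.46 and 2.60 CPM. Of 6 blood cell markers CD3E and HBB were at 0 in every library and CD68 gave most of the sum of 95.03 to 136.5 CPM. The part of the change in epithelial markers in the results below was not tested.

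The peroxiredoxins of the mitochondrial matrix and of the endoplasmic reticulum and the glutathione-dependent PRDX6 were lower in Rho0, while TXN, TXN2 and TXNRD2 were not called as different. Of the 8 genes with enough counts to test, 5 fell and 0 rose (quasi-likelihood test in edgeR, at 0.05 after Benjamini-Hochberg adjustment over all 15184 genes). At an unadjusted p of 0.05, 1 was higher, and both the DESeq2 Wald test and limma-voom called 0 as higher. Among all genes tested 25.4% were lower and 29.0% higher by the same rule, 54.4% in all. With libraries scaled by size alone, 3 of the 9 genes were called lower and 3 higher, where 10.1% and 56.5% of all genes were. The median log2 fold change of the 8 was -0.28, against 0.05 for all genes (0.11 and 0.44 by size alone). PRDX2 was not tested because it had almost no counts. In bulk RNA, fewer cells with a transcript and less of it per cell cannot be told apart.

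**Figure D1:**
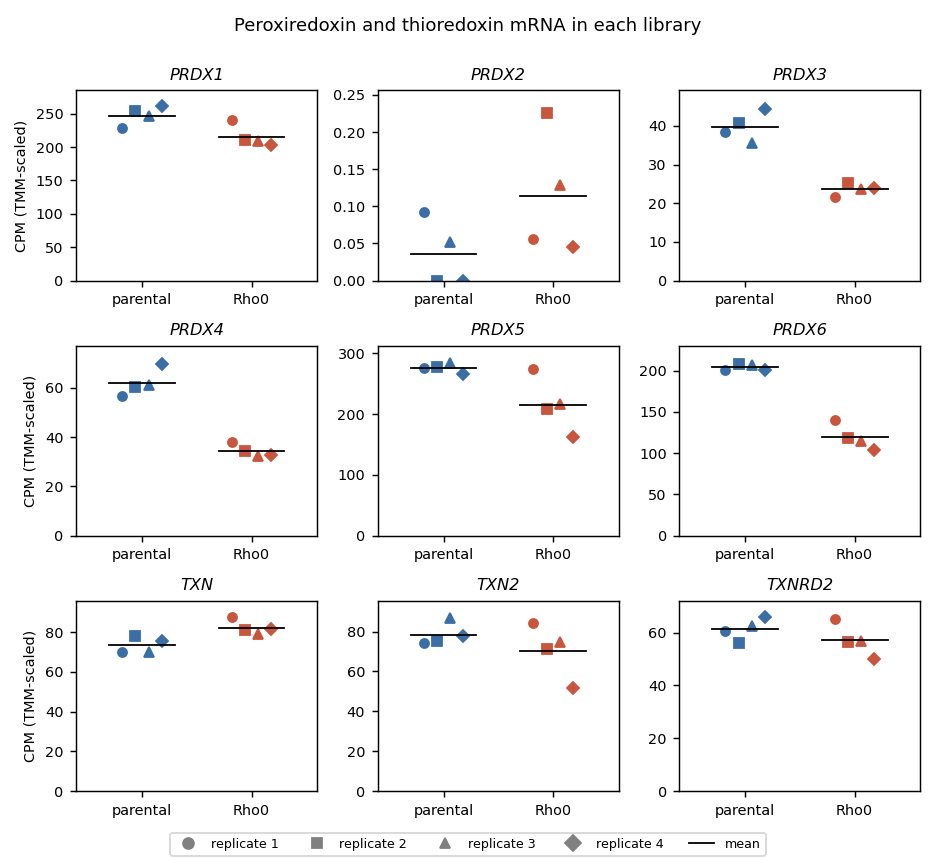
Level of each gene (vertical axis, CPM after TMM scaling, each panel starting at 0) in the 4 parental (blue) and 4 Rho0 (red) libraries, with the symbol giving the replicate and the line the mean. PRDX3, PRDX4 and PRDX6 lie lower in every Rho0 library than in any parental one, and PRDX2 reaches at most 0.226 CPM.

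PRDX4 (ENSG00000123131, chromosome X, 23664262 to 23686399, plus strand, GENCODE 29 on GRCh38), the peroxiredoxin of the secretory pathway, had the lowest log2 fold change of the 8, except when length and GC content of transcripts were corrected for (-0.78, against -0.88 for PRDX3). Parental replicates 1 to 4 had 56.8, 60.1, 61.3 and 69.5 CPM, and Rho0 replicates 1 to 4 had 38.1, 34.4, 32.2 and 32.7 CPM. Every Rho0 library was below every parental one. The means were 61.9 ± 5.38 and 34.4 ± 2.67 CPM (SD, n = 4 each), a log2 fold change of -0.85 (SE 0.09, edgeR adjusted p = 1.4e-05). Of all genes tested, 7.47% had a lower log2 fold change.

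PRDX3 (ENSG00000165672, chromosome 10, 119167703 to 119178833, minus strand), the main peroxidase of the mitochondrial matrix, had 38.5, 40.6, 35.4 and 44.4 CPM in the parental replicates. The Rho0 replicates had 21.5, 25.3, 23.8 and 23.9 CPM, again all below the parental line. The log2 fold change was -0.75 (SE 0.09, edgeR adjusted p = 3.9e-05), from 39.7 ± 3.76 to 23.6 ± 1.57 CPM (SD, n = 4 each). Its 4 processed pseudogenes in the table held at most 16 counts together, and at most 1.51% of the PRDX3 count of a library.

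PRDX6 (ENSG00000117592, chromosome 1, 173477266 to 173488807, plus strand), which also has phospholipase activity, had 200 to 208 CPM in the parental line. In Rho0 replicates 1 to 4 it had 139.9, 119, 115 and 104 CPM. The lines did not overlap, and the spread was wider in Rho0, with an SD of 14.9 CPM against 3.88 CPM. The mean fell from 203.7 to 119.5 CPM, a log2 fold change of -0.77 with an SE of 0.09 (edgeR adjusted p = 3.4e-05, n = 4 each).

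These 3 falls were called under all 20 alternative settings. Without Rho0 replicate 2, the library with the most mitochondrial mRNA, the log2 fold changes of PRDX4, PRDX3 and PRDX6 were -0.87, -0.80 and -0.78. When libraries were scaled by size alone, without TMM, they were -0.46, -0.37 and -0.38, but that scaling also moved the median of all genes from 0.05 to 0.44. With it, 84.8% of all called genes were higher in Rho0, against 53.3% with TMM. Set against the median of all genes, the 3 genes lay below it with both scalings.

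The sequences before the start sites are printed for PRDX3 and PRDX4, which both fell, beside TXN, which was not called, and the barely detected PRDX2. Each is the 250 bases upstream of the RefSeq start (GRCh38.p14), written along the gene's own strand, with GC boxes in capitals (GGGCGG, or CCGCCC on the other strand). They lie at chr10:119178813-119179062 (minus strand), chrX:23667243-23667492 (plus), chr9:110256508-110256757 (minus) and chr19:12801801-12802050 (minus). RefSeq and GENCODE starts differ: the PRDX4 window lies wholly inside the GENCODE span of the gene, and the other 3 windows reach into theirs.
PRDX3: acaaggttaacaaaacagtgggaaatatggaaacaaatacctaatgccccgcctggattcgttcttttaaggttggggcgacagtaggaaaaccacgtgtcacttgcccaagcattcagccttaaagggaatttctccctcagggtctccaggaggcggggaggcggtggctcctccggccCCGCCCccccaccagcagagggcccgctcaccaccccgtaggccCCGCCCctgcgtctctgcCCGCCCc
PRDX4: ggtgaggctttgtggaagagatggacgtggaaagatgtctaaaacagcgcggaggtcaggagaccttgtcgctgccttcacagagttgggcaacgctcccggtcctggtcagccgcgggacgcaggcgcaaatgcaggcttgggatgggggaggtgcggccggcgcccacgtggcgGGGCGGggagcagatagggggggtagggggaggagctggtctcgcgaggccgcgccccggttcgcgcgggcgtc
TXN: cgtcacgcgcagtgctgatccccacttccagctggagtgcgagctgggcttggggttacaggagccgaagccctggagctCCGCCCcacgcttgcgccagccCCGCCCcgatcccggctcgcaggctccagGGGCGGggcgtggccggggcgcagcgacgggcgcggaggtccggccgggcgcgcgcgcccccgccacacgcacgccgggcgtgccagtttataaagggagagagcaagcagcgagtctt
PRDX2: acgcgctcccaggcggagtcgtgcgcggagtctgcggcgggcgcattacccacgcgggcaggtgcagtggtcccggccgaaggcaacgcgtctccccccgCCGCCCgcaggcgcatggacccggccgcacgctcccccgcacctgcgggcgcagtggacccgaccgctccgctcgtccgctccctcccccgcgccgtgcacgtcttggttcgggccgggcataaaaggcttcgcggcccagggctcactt

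GC boxes, bound by Sp1-family factors, numbered 3 in the PRDX3 window, 1 in that of PRDX4, 3 in that of TXN and 1 in that of PRDX2, and 42.6% of all 35116 RefSeq windows of this length held at least 1. The core of the antioxidant response element bound by NRF2 (TGANNNNGC on either strand) occurred 1 time in the PRDX3 window, starting 48 bases before the start site, and in none of the other 3 printed. It also occurred 1 time in each of 2 of the 3 TXNRD2 windows, a gene that was not called, and in 35.2% of all windows. RefSeq entries were found for 6 of the 9 genes. The windows of TXNRD2 and PRDX5 are not printed, and those of PRDX5 held no such core. A match is a run of letters and does not show that a factor binds there.

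PRDX1 and PRDX5, the peroxiredoxins with the highest levels, fell less, and their calls depended on the settings. PRDX1 (ENSG00000117450, chromosome 1, 45511036 to 45523047, minus strand), the main cytosolic peroxiredoxin, had 228, 253, 246 and 261 CPM in the parental replicates and 241, 211, 208.5 and 202 CPM in Rho0. Rho0 replicate 1 lay within the parental range. The log2 fold change was -0.20 (SE 0.08, 95% interval -0.36 to -0.03, edgeR adjusted p = 0.0494). The call was lost in 11 of 20 alternatives (adjusted p over the 20 from 0.00584 to 0.127). These included leaving out parental replicate 2, 3 or 4 (adjusted p = 0.116, 0.0777 and 0.127) or Rho0 replicate 2, 3 or 4 (0.107, 0.119 and 0.0699). Under library-size scaling PRDX1 was called in the other direction, at 0.19 (adjusted p = 0.0442). PRDX1 overlaps MMACHC on the opposite strand, which had 12.03 ± 1.25 and 8.98 ± 1.07 CPM (SD, n = 4 each). The labels do not say whether counting used strand, so reads in the overlap may be shared between these genes.

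PRDX5 (ENSG00000126432, chromosome 11, 64318088 to 64321811, plus strand), an unusual peroxiredoxin sent to mitochondria, peroxisomes and cytosol, had 277, 278, 284 and 267 CPM in the parental replicates. Rho0 replicates 1 to 4 had 275, 208.5, 217 and 163 CPM, so that Rho0 replicate 1 was within the parental range. The log2 fold change was -0.36 (SE 0.13, 95% interval -0.64 to -0.07, edgeR adjusted p = 0.0383). Without Rho0 replicate 1 it was -0.52 (adjusted p = 0.00146), without Rho0 replicate 4 it was -0.25 (0.0397), and with length and GC content corrected for it was -0.20 (0.0306). The call was lost on leaving out parental replicate 1, 2, 3 or 4 (0.0728, 0.0757, 0.0799 and 0.0613 as adjusted p) and without Rho0 replicate 2 or 3 (0.0894 and 0.0825). It was also lost with library size alone (0.03, adjusted p = 0.83).

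PRDX2 (ENSG00000167815, chromosome 19, 12796820 to 12801859, minus strand), the other typical cytosolic peroxiredoxin, was close to the limit of detection in both lines. It had 2, 0, 1 and 0 estimated counts in parental replicates 1 to 4 and 2, 3, 3 and 2 in Rho0, 3 and 10 in all. In each library 3 counts correspond on average to 0.138 CPM in the parental line and 0.127 CPM in Rho0, and no fold change is given at this depth. Its 4 pseudogenes together held at most 12.3 counts in a library. HOOK2, the annotated neighbour that spans PRDX2 on the same strand, had 22.6 ± 0.520 and 36.1 ± 5.92 CPM (SD, n = 4 each; log2 fold change 0.67, edgeR adjusted p = 6.0e-04). Whether PRDX2 reads were assigned to another ID before deposit was not tested, as the tables hold gene totals only.

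TXN, the cytosolic thioredoxin, was not called as different, and the sign of its change depended on the settings. TXN (ENSG00000136810, chromosome 9, 110243811 to 110256640, minus strand) had 70.2, 78.2, 70.1 and 75.5 CPM in the parental replicates and 87.8, 80.8, 79.1 and 81.6 CPM in Rho0. All Rho0 libraries were above all parental ones, though by as little as 79.1 against 78.2 CPM. The log2 fold change of 0.16 (SE 0.07, 95% interval 0.01 to 0.31) did not pass the test (edgeR adjusted p = 0.0633). It passed with library size alone (0.55, adjusted p = 1.5e-04) and with a filter of 50 counts in 4 libraries (0.19, adjusted p = 0.0286). Once transcript length and GC content were corrected for, it was -0.08 (adjusted p = 0.581). The TXN transcripts, with a median of 35.6% GC, had the lowest GC content of the 9 genes.

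The mitochondrial thioredoxin TXN2 (ENSG00000100348, chromosome 22, 36467036 to 36482030, minus strand) had 74.3, 75.1, 86.6 and 77.6 CPM in the parental replicates. In Rho0 it had 84.2, 71.4, 74.9 and 51.5 CPM, and the lines overlapped. Its log2 fold change was -0.15 (SE 0.13, 95% interval -0.45 to 0.14, edgeR adjusted p = 0.345). Rho0 replicate 4 was the lowest library, and without it the value was -0.03 (adjusted p = 0.763).

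TXNRD2 (ENSG00000184470, chromosome 22, 19875517 to 19941992, minus strand), the selenium-containing reductase that recharges TXN2, had 60.7, 55.9, 62.3 and 65.9 CPM in the parental replicates and 65.1, 56.6, 56.9 and 49.98 CPM in Rho0. The lines overlapped, with a log2 fold change of -0.10 (SE 0.09, 95% interval -0.30 to 0.10, edgeR adjusted p = 0.381). Under library-size scaling TXNRD2 was called higher, at 0.29 (adjusted p = 0.0159).

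In 5 of the 8 genes, PRDX1, PRDX5, PRDX6, TXN2 and TXNRD2, Rho0 replicate 1 was the highest and Rho0 replicate 4 the lowest of the Rho0 libraries. PRDX3 differed, with replicate 1 the lowest and replicate 2 the highest. PRDX4 and TXN were highest in replicate 1 and lowest in replicate 3. How many of all genes follow the order of the 5 was not counted. Over the whole count table, Rho0 replicates 1 and 4 were the most unlike 2 libraries of the same line. Their chi-square per degree of freedom, which also grows with depth, was 100, against 4.21 to 29.4 for the other pairs. The order of the 5 is therefore not shown to be particular to these genes. Groups of non-overlapping libraries were found for PRDX3, PRDX4, PRDX6 and TXN, 4 of the 8 genes, against 50.9% of all genes tested. Of these, 3 were lower in Rho0 and 1 was higher, where 24.3% and 26.6% of all genes separated in those directions.

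**Figure D2:**
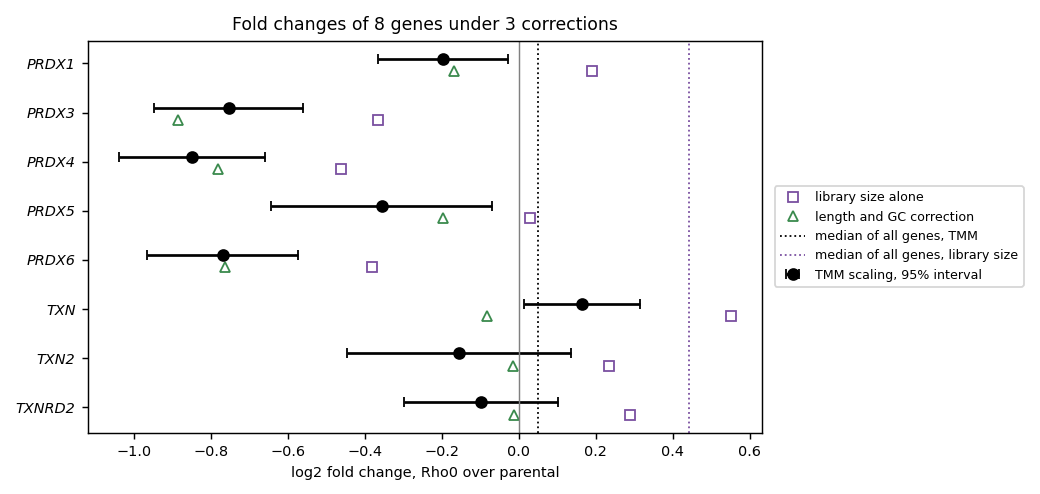
Log2 fold change of Rho0 over parental (horizontal axis) for the 8 tested genes with TMM scaling and its 95% interval (black), with library size alone (squares) and corrected for length and GC content of transcripts (triangles). Dotted lines mark the median of all genes, 0.05 with TMM and 0.44 with library size alone. PRDX3, PRDX4 and PRDX6 lie below 0 in all 3, whereas PRDX1, PRDX5, TXN, TXN2 and TXNRD2 change sign in at least 1.

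Ratios of counts within a library do not depend on how libraries are scaled, so 5 of them were compared with two-sided exact permutation tests over 70 arrangements of the libraries. The smallest p that these allow is 0.0286. The ratio of PRDX4 to PRDX1 lay between -2.08 and -1.91 on the log2 scale in the parental libraries, and the Rho0 replicates had -2.66, -2.62, -2.69 and -2.63. It was 1.57-fold lower in Rho0 (difference -0.65, exact permutation p = 0.0286, adjusted p = 0.0357 over the 5 ratios), and the Rho0 libraries lay close together. Every Rho0 library was thus below every parental one for PRDX4 relative to PRDX1, which is 1 of several cytosolic peroxiredoxins.

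The ratio of PRDX3 to PRDX1, matrix to cytosol, was -2.57, -2.64, -2.79 and -2.56 in the parental replicates and -3.48, -3.06, -3.13 and -3.08 in Rho0. The difference was -0.55 (exact permutation p = 0.0286, adjusted p = 0.0357), with Rho0 replicate 1 the lowest. For TXN2 to TXN, also matrix to cytosol, parental libraries lay between -0.06 and 0.30 and Rho0 libraries between -0.66 and -0.06. The closest libraries of the 2 lines differed only in the third decimal, and the difference of -0.34 (exact permutation p = 0.0286, adjusted p = 0.0357) was -0.20 without Rho0 replicate 4 (adjusted p = 0.0714). With transcripts' length and GC content corrected for, the fitted log2 fold changes were -0.015 for TXN2 and -0.08 for TXN, so the order of these genes turned.

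Among the reductases, TXNRD2 to TXN2 was -0.36 ± 0.11 in the parental line and -0.29 ± 0.16 in Rho0 on the log2 scale (SD, n = 4 each; difference 0.07, exact permutation p = 0.543). The matrix reductase TXNRD2 to its cytosolic counterpart TXNRD1 lay between -1.51 and -1.31 in the parental libraries and between -2.48 and -1.66 in Rho0. That ratio was 1.49-fold lower in Rho0 (difference -0.58, exact permutation p = 0.0286, adjusted p = 0.0357). These 4 calls were lost on leaving out any 1 parental library. Exact permutation adjusted p was then 0.0714 for PRDX3 to PRDX1 and PRDX4 to PRDX1, 0.0952 for TXNRD2 to TXNRD1 and 0.107 to 0.143 for TXN2 to TXN. Without 1 library only 35 arrangements remain, with a smallest unadjusted p of 0.0286. On leaving out any 1 library of either line, the differences kept their sign. The smallest in size were -0.45, -0.62, -0.43 and -0.20 in the same order.

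**Figure D3:**
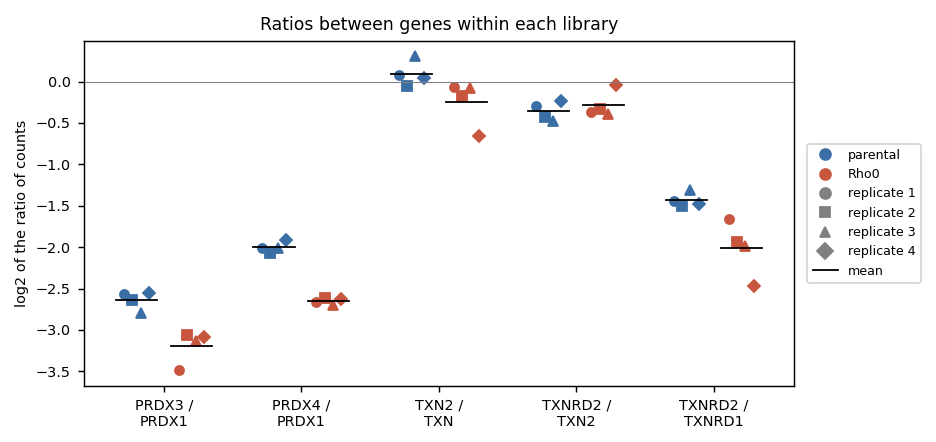
Log2 ratio of the counts of 2 genes within each library (vertical axis) for 5 pairs, in parental (blue) and Rho0 (red) libraries, with the line at the mean. The lines separate for all pairs except TXNRD2 to TXN2, and those of TXN2 to TXN nearly touch.

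To compare genes with each other, levels were divided by the median length of the annotated transcripts. Per kilobase, PRDX5 was the highest of the 9 genes, with 448 to 476 CPM per kb in the parental line, followed by PRDX1 with 325 to 371 CPM per kb and PRDX6 with 233 to 242 CPM per kb. TXN followed with 110 to 123 CPM per kb and TXN2 with 81.5 to 94.95 CPM per kb, which overlapped PRDX4 with 69.7 to 85.2 CPM per kb. TXNRD2 (30.1 to 35.5 CPM per kb) and PRDX3 (22.3 to 27.9 CPM per kb) were the lowest of the genes above the detection limit. PRDX2 had at most 0.124 CPM per kb in this line.

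The order of means was the same in Rho0, but some neighbours changed their spacing. PRDX5 (274 to 461 CPM per kb) overlapped PRDX1 (288 to 343 CPM per kb), and PRDX6 (121 to 163 CPM per kb) overlapped TXN (125 to 138 CPM per kb). PRDX4, at 39.5 to 46.8 CPM per kb, no longer reached TXN2, at 56.5 to 92.3 CPM per kb. The longest transcript in place of the median length put PRDX4 above TXN2 in the parental line (61.6 and 45.2 CPM per kb) and TXN above PRDX6 in Rho0 (94.7 and 68.2 CPM per kb). The order of those pairs is therefore uncertain, since the isoforms present are not given by gene totals.

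**Figure D4:**
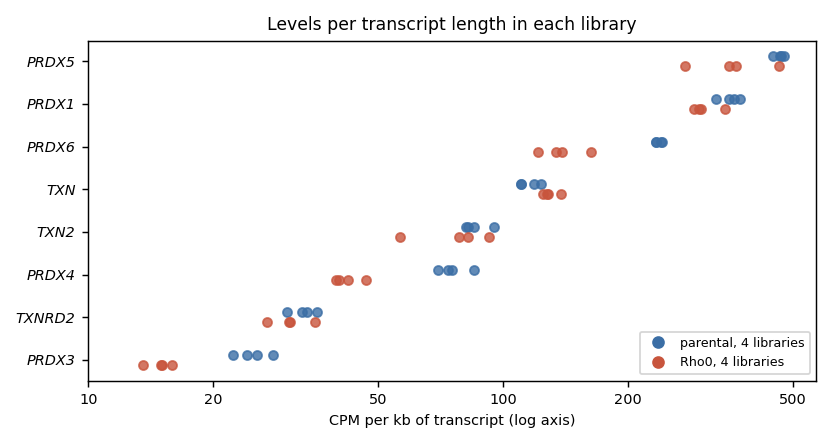
Level per transcript length (horizontal log axis, CPM per kb of the median annotated transcript) of 8 genes in each parental (blue) and Rho0 (red) library, ordered by the parental mean. PRDX5 is the highest and PRDX3 the lowest, and PRDX6 moves from 237 to 139 CPM per kb toward the level of TXN.

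The 6 peroxiredoxins together had 1154 ± 24.6 CPM per kb in the parental line and 866 ± 119 CPM per kb in Rho0 (SD, n = 4 each). Their shares of this pool do not depend on library scaling, but they do depend on the median transcript length used, and are given as a description. PRDX2 made up at most 0.036% of the pool in any library. Whether its reads were assigned to another ID was not tested, and if they were, the pool and all shares leave them out. PRDX6 made up 20.0% to 20.9% in the parental libraries and 15.8% to 16.4% in Rho0, and PRDX4 6.24% to 7.31% and 4.55% to 5.44%. PRDX1 took 29.1% to 31.9% and then 33.4% to 39.1%. The share of PRDX5 was 38.4% to 41.6% and 37.05% to 44.9%, and that of PRDX3 1.92% to 2.39% and 1.32% to 2.04%, so that both overlapped between the lines.

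The genes that serve the relay went both ways, with a sharp fall of the thioredoxin inhibitor. Of 53 partner genes in 7 lists, 52 could be tested, 19 rose and 14 fell, against 29.0% and 25.4% of all genes, with a median log2 fold change of 0.11. Under library-size scaling 37 rose and 6 fell, where 56.5% and 10.1% of all genes did. These shares also apply to the counts of single lists under that scaling below. TXNIP, which binds and inhibits thioredoxin, had 26.4 ± 2.13 CPM in the parental line and 5.97 ± 0.369 CPM in Rho0 (SD, n = 4 each). It fell by 2.15 on the log2 scale with an SE of 0.09 (edgeR adjusted p = 2.7e-08). TXNRD1, the cytosolic thioredoxin reductase, rose from 165.6 ± 12.8 to 231.6 ± 32.0 CPM (1.40-fold, adjusted p = 0.00206). The low-level reductase TXNRD3 fell from 5.54 to 4.29 CPM (-0.36, adjusted p = 0.0194), but lost its call without parental replicate 3 (adjusted p = 0.0516).

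SRXN1, the sulfiredoxin that repairs over-oxidised peroxiredoxins, rose from 40.4 ± 1.12 to 59.1 ± 3.07 CPM, or by 0.55 on the log2 scale (edgeR adjusted p = 4.9e-05). SESN1 fell (-0.33, adjusted p = 0.021), a call lost without parental replicate 2 (0.07) or 4 (0.0508). SESN2 had 42.6 ± 2.04 and 41.1 ± 2.55 CPM (-0.05, adjusted p = 0.566), and SESN3 was too low to test. TXNRD3 and SESN1 stood at 0.04 and 0.05 and lost their calls under library-size scaling, and SESN2 was called at 0.34.

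In the glutaredoxin system, which reduces disulfides with glutathione, 1 of 5 genes rose and 1 fell (3 and 0 under library-size scaling). GLRX, the cytosolic glutaredoxin, rose 1.30-fold, while GLRX5, of mitochondrial iron-sulfur cluster assembly, fell from 54.1 to 37.6 CPM (-0.52), a call lost with library size alone (-0.14). Among 9 genes listed as thioredoxin clients 2 rose and 4 fell, but 5 rose and 2 fell under library-size scaling. The list is broad, with the ribonucleotide reductase subunits RRM1, RRM2 and RRM2B and MAP3K5, a partner kinase of thioredoxin. The ribonucleotide reductase subunit RRM1 fell from 84.0 ± 4.65 to 50.5 ± 3.89 CPM (-0.73, edgeR adjusted p = 1.8e-05). RRM2B, the subunit used outside S phase, rose 1.33-fold (adjusted p = 0.0295), but not without parental replicate 1, 2 or 3 or Rho0 replicate 3 or 4 (adjusted p = 0.0626, 0.0518, 0.089, 0.0765 and 0.0578).

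Of 15 further proteins with a thioredoxin fold 5 rose and 3 fell (12 and 1 under library-size scaling). TXNDC9 rose 1.83-fold, and NXN, nucleoredoxin, fell from 18.7 ± 2.08 to 5.51 ± 1.12 CPM, a log2 fold change of -1.79 (edgeR adjusted p = 4.3e-06). Of 9 disulfide isomerases and oxidases of the endoplasmic reticulum, the compartment of PRDX4, 6 rose and 1 fell (8 and 1 under library-size scaling). P4HB, protein disulfide isomerase, rose 1.34-fold, whereas PDIA5 fell by 0.74 on the log2 scale. Of 8 enzymes listed for NADPH supply 3 rose and 2 fell (6 and 1 under library-size scaling). How much NADPH each makes in these cells was not measured. The mitochondrial folate enzyme MTHFD2 rose from 33.6 ± 3.69 to 57.4 ± 2.74 CPM, and the mitochondrial malic enzyme ME3 fell from 71.9 ± 1.37 to 45.3 ± 4.03 CPM.

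**Figure D5:**
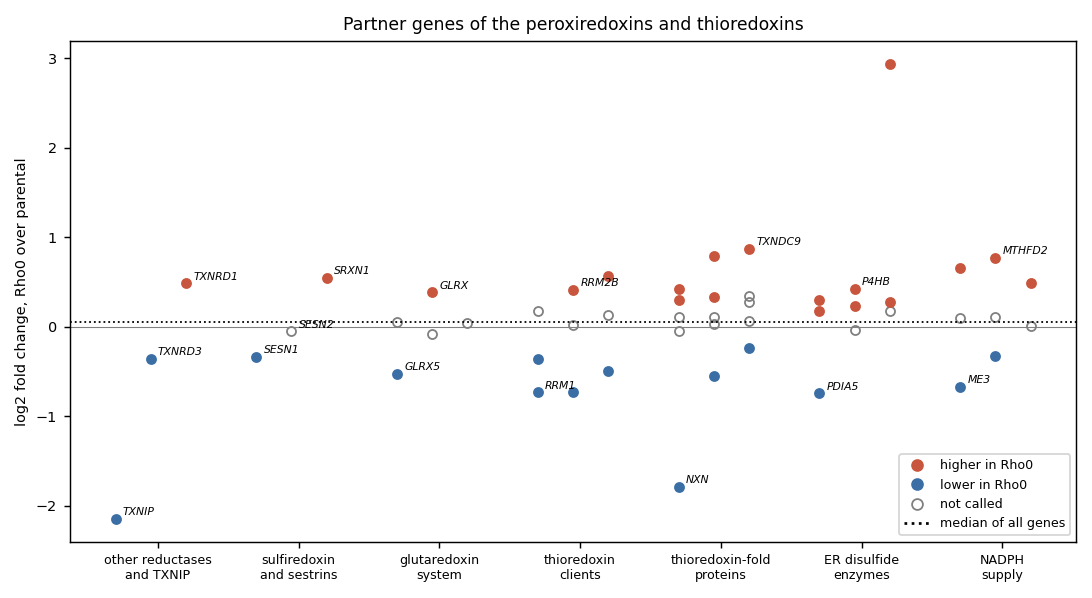
Log2 fold change of Rho0 over parental (vertical axis) for 52 partner genes in 7 lists, filled where called higher (red) or lower (blue), with the dotted line at the median of all genes, 0.05. TXNIP and NXN lie lowest at -2.15 and -1.79, and the unlabelled point at 2.94 is ERO1B, below 5 CPM in both lines.

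The gene most like each member was sought among 8836 protein-coding genes with at least 10 CPM, by the root mean square distance of centred log2 CPM over the 8 libraries. For PRDX4 it was CIAPIN1, of cytosolic iron-sulfur protein assembly (distance 0.05, log2 fold changes -0.85 and -0.83). For PRDX3 it was the proteasome subunit gene PSMA2 (distance 0.06) and for PRDX6 FAM219A (0.04). PRDX1 lay closest to the ATP synthase subunit gene ATP5F1A (0.03) and PRDX5 to the myosin light chain gene MYL6 (0.03). TXN lay closest to the cardiolipin synthase gene CRLS1 (0.04), TXN2 to SGF29 (0.03) and TXNRD2 to CIRBP (0.03). Such distances take in both the difference between the lines and the spread among replicates, and describe likeness alone.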

How the data were processed

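RNA-seq was measured in 4 parental and 4 Rho0 libraries. The authors deposited a table of estimated counts for 38010 Ensembl gene IDs, and a table of 12885 genes on a log2 scale. Named in the submitters' processing notes are GRCh38, kallisto, limma and edgeR, and versions and roles are not given in the sources used here. Symbols came from a table of gene names and from GENCODE release 29, which named 34284 IDs.

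Rounded estimated counts went through filterByExpr (minimum count 10), TMM scaling and a quasi-likelihood fit on the line alone, in edgeR 4.0.16 under R 4.3.3. Benjamini-Hochberg adjustment covered the 15184 genes left, and calls were made at 0.05. The standard error is the log2 fold change divided by the square root of F. CPM values use TMM-scaled library sizes, and 1 count was worth 0.0225 to 0.0753 CPM. TMM factors lay at 0.801 to 0.921 (parental) and 1.11 to 1.19 (Rho0). The scripts were tested on simulated data. The labels call the replicates biological, and p-values rest on the spread among these 4 per line.

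The members, lists and promoter motifs were chosen with earlier results of these data known. All members were named. Among partner genes, lists of 4 or fewer were named whole, and otherwise the called gene with the largest change in each direction at 5 CPM or more in the higher line. Alternatives were DESeq2 1.42.0 size factors and Wald test, library size alone, totals without mitochondrially encoded genes, other filters, limma-voom (limma 3.58.1), limma-trend on the log2 table, a robust fit, a replicate block, added pseudogene counts, corrected length and GC content of transcripts (known for 93.7% of genes tested) and leaving out each library.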

Additional observations from a re-analysis of the deposited data

How the results depend on the processing

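Across 20 alternatives the directions and calls of PRDX3, PRDX4 and PRDX6 held, with log2 fold changes of -0.88 to -0.37, -0.93 to -0.46 and -0.88 to -0.38. Scaling by library size alone, which raised the median of all genes to 0.44, gave 3 of the 9 genes higher and 3 lower, 37 partner genes higher and 6 lower, and 8572 of all genes higher and 1540 lower, against 4399 and 3858. It turned the sign of PRDX1 (0.19), TXNRD2 (0.29) and SESN2 (0.34), which were called higher. PRDX5 (0.0301), TXN2 (0.23), TXNRD3 (0.0361) and SESN1 (0.0539) also turned sign but were not called. A filter of 50 counts in 4 libraries gave 1 of the 9 genes, TXN, as higher. Leaving out 1 library left 3 to 5 of the 9 genes lower. Same-numbered deviations correlated at -0.135, 0.037, 0.002 and 0.155. Parental replicates 2 and 4 correlated best with the Rho0 library of their own number, and parental replicates 1 and 3 did not. These correlations do not settle whether the replicate numbers pair the libraries. A replicate block gave 4 of the 9 genes lower, with PRDX1 not called (adjusted p = 0.0991). With pairs of the same number as the block, the ratio differences were -0.55 for PRDX3 to PRDX1, -0.65 for PRDX4 to PRDX1, -0.34 for TXN2 to TXN and -0.58 for TXNRD2 to TXNRD1, each with an exact adjusted p of 0.156, where 4 pairs cannot give a p below 0.125. Leaving out 1 library, the same ratios lay between -0.60 and -0.45, -0.68 and -0.62, -0.40 and -0.20, and -0.70 and -0.43 (exact permutation adjusted p of 0.0357 to 0.143). PRDX2 had 0 to 3 counts in a library, too few for a fold change.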

Other observations

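Further partner genes, chosen after their values were seen, add to the groups described. RRM2, the other ribonucleotide reductase subunit of dividing cells, fell with RRM1, from 141.7 ± 8.53 to 85.7 ± 4.30 CPM (a log2 change of -0.72, edgeR adjusted p = 9.9e-06, SD over 4 libraries each), and also with library size alone (-0.33). In the endoplasmic reticulum PDIA4, PDIA6 and the oxidase ERO1A rose by 0.23, 0.28 and 0.29 on the log2 scale, and by 0.63, 0.67 and 0.69 with library size alone. QSOX1 and QSOX2 of the same list were not called with TMM, but were called higher with library size alone. The membrane thioredoxin-fold protein gene TMX4 rose from 44.3 ± 1.55 to 76.4 ± 12.2 CPM (0.79, edgeR adjusted p = 9.9e-05). NNT, the mitochondrial transhydrogenase that supplies matrix NADPH, rose from 19.1 ± 1.59 to 26.9 ± 5.06 CPM, with lines that overlapped. IDH2, also listed for NADPH supply, went the other way, from 47.0 ± 1.97 to 37.5 ± 5.24 CPM (-0.33, edgeR adjusted p = 0.018). With library size alone IDH2 was not called (0.06, adjusted p = 0.575). ME1, the cytosolic malic enzyme, rose from 20.4 ± 1.24 to 32.1 ± 0.773 CPM, while the mitochondrial ME3 was lower.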
